A study of Rattus norvegicus with 15 samples.

Results

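Messenger RNA of 6 genes of intestinal calcium absorption and vitamin D action was followed in the small intestine of rats after Roux-en-Y gastric bypass (RYGB): Trpv6, S100g, Calb1, Cyp24a1, Vdr and Atp2b1. Members were all noncontrol probes whose gene name on the array is one of these symbols, each probe kept apart. They are 6 of the 17338 genes named on the array, read by 8 of its 41012 probes, since Atp2b1 and Cyp24a1 have 2 probes each. RNA came from 15 male rats, 5 in each of 3 groups, 1 array per rat. Wistar rats, which are not diabetic, had no operation. GK-Sham-PF rats were Goto-Kakizaki (GK) rats, a nonobese strain with inherited diabetes, operated at 16 wk of age with a cut and rejoining of the intestine 16 cm from the ligament of Treitz and then pair-fed to the surgical group that ate least. GK-S-30 rats were GK rats that had RYGB at the same age. Their intestine was cut 16 cm from the ligament of Treitz, and the part past the cut was joined to the stomach pouch. The 30 cm of intestine from this join onward are the Roux limb (RL). At 14 wk postoperation, after an overnight fast, a 5-cm piece of the RL was taken 5 cm from its join with the stomach in GK-S-30, and a 5-cm piece starting 21 cm and ending 26 cm past the ligament of Treitz in GK-Sham-PF and age-matched Wistar rats. All groups ate standard chow. Wistar and GK-Sham-PF rats differ in strain, operation and feeding together, so these cannot be told apart, and no GK rat without surgery is among the arrays.

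Calcium crosses the intestinal epithelium by an active route through the cell and a passive route between cells. In the active route, channels such as Trpv6 let calcium in at the brush border, binding proteins of the calbindin family (calbindin-D9k from S100g in mammalian intestine, calbindin-D28k from Calb1 mainly in kidney and brain) carry and buffer it, and the calcium pump encoded by Atp2b1 moves it out at the basolateral side. The active hormone calcitriol acts through the vitamin D receptor encoded by Vdr, raises Trpv6 and S100g, and strongly induces Cyp24a1, the hydroxylase that breaks calcitriol down.

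The values rest on 60-base probes, so the sequences behind the results that follow are shown 5′ to 3′, in the strand of the messenger RNA, with positions in the rn4 genome build from the array's annotation. The S100g probe, at chrX:52449257-52449316 on the plus strand, is shown by its first 30 bases, and so is the Cyp24a1 probe A_44_P235892, at chr3:161540181-161540240 on the minus strand, because neither has a reading frame open over its whole length. The other Cyp24a1 probe, A_43_P19543, lies at chr3:161543241-161543300 on the minus strand. The Atp2b1 probes lie at chr7:36558329-36558388 (A_43_P12761) and chr7:36599842-36599901 (A_44_P245665), both on the plus strand, and the Vdr probe at chr7:136570059-136570118 on the minus strand. These 4 are open in at least 1 frame throughout. No pair of the 8 probes shared a run of 12 bases, so the probes of one gene read different stretches of its messenger RNA.
S100g A_43_P11444: cgacaccacctactgattgaatcctatcca
Atp2b1 A_43_P12761: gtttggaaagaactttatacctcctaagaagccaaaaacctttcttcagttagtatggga
Atp2b1 A_44_P245665: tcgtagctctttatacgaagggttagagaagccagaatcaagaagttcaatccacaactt
Vdr A_44_P276492: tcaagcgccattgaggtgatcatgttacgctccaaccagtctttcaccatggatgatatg
Cyp24a1 A_43_P19543: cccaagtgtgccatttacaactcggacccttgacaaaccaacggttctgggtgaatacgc
Cyp24a1 A_44_P235892: atataaagacatgaggtacccaatttagta

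On single arrays 66.7% to 74.8% of probes gave signals well above background, no spot was saturated, and arrays of one group correlated at 0.979 to 0.994 across probes. The 75th percentile of the signal was 207 in Wistar replicate 3 and 208 in GK-Sham-PF replicate 5 and 302 to 357 on the other arrays. The arrays lay on 4 slides, here A to D. Slide A held 4 Wistar arrays, slide B 1 of Wistar with 3 of GK-Sham-PF, slide C 2 arrays from each GK group, and slide D 3 of GK-S-30, so slide and group overlap in large part. Below, levels are quantile-normalized log2 signals, a difference of 1 being a 2-fold change, and a change was called at an adjusted p under 0.05 in limma over the 27893 probes detected well above background throughout 1 or more groups. Of the 8 probes, 4 (S100g, both of Atp2b1, and Vdr) met this condition, and those of Cyp24a1, Trpv6 and Calb1 did not. The labelled tissue showed its epithelial genes: Fabp2, the fatty acid binding protein of enterocytes, had a mean level of 17.71 to 17.99 in the 3 groups. The level of one probe cannot be set against that of another.

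S100g mRNA level fell stepwise across the 3 groups. It was highest in Wistar, lower in GK-Sham-PF and lowest in GK-S-30, and Atp2b1 was higher in GK-S-30 than in both other groups. Between the GK-S-30 and the GK-Sham-PF group, 1 member probe was called higher (Atp2b1) and 1 lower (S100g), beside 3.9% of all probes tested called higher and 2.8% called lower. Between GK-Sham-PF and Wistar, S100g alone among the member probes was called, as lower, beside 3.61% of all probes called higher and 4.22% called lower. Between GK-S-30 and Wistar, both Atp2b1 probes were called higher and S100g lower, beside 10.9% and 11.8% of all probes. Neighboring comparisons share arrays, GK-Sham-PF in the first 2 and Wistar in the last 2, so their values are not independent.

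**Figure D1:**
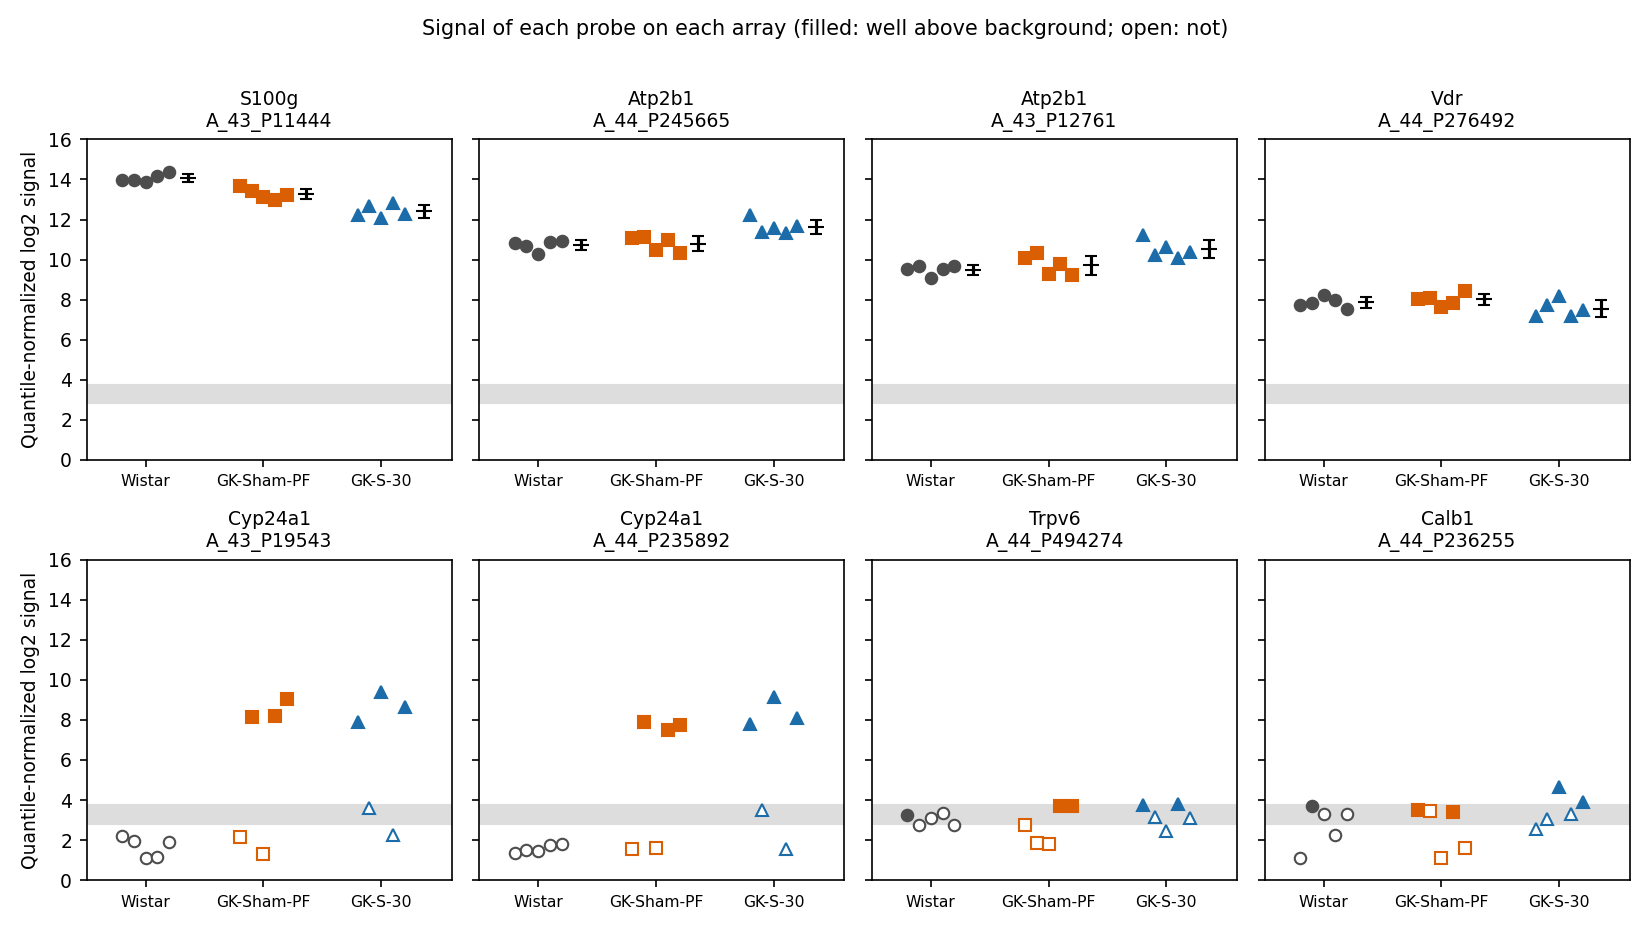
Quantile-normalized log2 signal of the 8 probes on each of the 15 arrays, by group. Each point is 1 rat, filled where the spot was well above background and open where it was not. Black bars give the group mean and SD for probes above background on every array of the group. The grey band spans the lowest level called well above background on any array, 2.82 to 3.74. S100g steps down from group to group without overlap, and in single pairs 7.69% to 17.9% of all probes tested do not overlap. Cyp24a1 is split within both GK groups, and Trpv6 and Calb1 lie at the band.

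Calbindin-D9k, the product of S100g, is the main cytosolic calcium carrier of the rodent duodenum and jejunum. In Wistar rats the processed signal of S100g, in arbitrary units, was 15931, 15002, 10551, 19875 and 21524 in replicates 1 to 5. In GK-Sham-PF it was 13652, 11224, 9908, 7903 and 7047, and in GK-S-30 5630, 6672, 4955, 7335 and 5569. Before normalization the highest sham signal exceeded the lowest Wistar signal, that of the dim array Wistar replicate 3, and the lowest sham signal, that of the dim array GK-Sham-PF replicate 5, lay under the highest of GK-S-30. After normalization the 3 groups did not overlap, with levels of 13.87 to 14.38 in Wistar, 12.95 to 13.65 in GK-Sham-PF and 12.08 to 12.81 in GK-S-30. Of all probes tested, 7.69% did not overlap between the GK-S-30 and the GK-Sham-PF group. The share was 8.8% between GK-Sham-PF and Wistar and 17.9% between GK-S-30 and Wistar.

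The mean S100g level was 14.07 ± 0.20 (SD, n = 5) in Wistar, 13.27 ± 0.27 (n = 5) in GK-Sham-PF and 12.41 ± 0.31 (n = 5) in GK-S-30. GK-S-30 lay under GK-Sham-PF by 1.81-fold (log2 difference -0.86, SE 0.16, adjusted p = 0.00576). GK-Sham-PF lay under Wistar by 1.74-fold (-0.80, SE 0.16, adjusted p = 0.00495). The 95% intervals of these steps, which share the sham arrays, were -1.20 to -0.51 and -1.15 to -0.46. Over both steps S100g was 3.16-fold lower in GK-S-30 than in Wistar rats (-1.66, SE 0.16, adjusted p = 3.64e-06), a larger fall than that of all but 203 of the 27893 probes. In the single steps, 390 and 606 probes fell as far as S100g or further, S100g itself counted, as it is in the 203. Of the 12 epithelial marker genes tested, none was called between Wistar and GK-Sham-PF rats in limma (1 at an unadjusted p under 0.05, and 3 by the unadjusted Tukey comparison). Between the GK-S-30 and the GK-Sham-PF group 1 was called higher on its brightest probe (Krt19, an epithelial keratin, by 0.56) and none lower. A dimmer probe of Krt18 was also called higher there (0.40, adjusted p = 0.0296), while its brightest gave 0.29 (adjusted p = 0.0584). Between GK-S-30 and Wistar, 3 were called higher (Krt18 by 0.32, Krt19 by 0.63 and Tspan8 by 0.70) and 1 lower, Fabp2 (-0.28, adjusted p = 0.0208). The summed signal of this list was 740556 to 859723 in Wistar, 717991 to 867244 in GK-Sham-PF and 799600 to 884913 in GK-S-30. In pieces of whole intestine, fewer S100g-expressing cells and less S100g mRNA per cell cannot be told apart.

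With slide as a fixed term in the model, the S100g differences were -0.64 (adjusted p = 0.27) between the GK-S-30 and the GK-Sham-PF group, -0.61 (adjusted p = 0.658) between GK-Sham-PF and Wistar and -1.25 (adjusted p = 0.178) between GK-S-30 and Wistar, none of them called. Within slide B the 3 GK-Sham-PF arrays all lay under the single Wistar array (mean 13.38 against 13.99), and within slide C both GK-S-30 arrays lay under both GK-Sham-PF arrays (12.46 against 13.10). S100g is known to fall along the length of the intestine, and the study describes the pieces of the 3 groups as corresponding segments. Some genes of distal or proximal intestine differed between groups as well. Slc10a2, the ileal bile acid transporter, was 3.43 higher in GK-S-30 than in the GK-Sham-PF group (adjusted p = 1.14e-05) and lower in GK-Sham-PF than in Wistar (log2 difference -2.41, adjusted p = 5.36e-05). Of 7 distal genes tested, 2 were higher in GK-S-30 than in the GK-Sham-PF group (Slc10a2 and Fabp6). Of 8 proximal genes, 1 was higher in GK-S-30 than in the GK-Sham-PF group, Slc11a2, the iron transporter (difference 1.50, adjusted p = 0.0499, with 0.20 and adjusted p = 0.491 on its other probe), and none was called by limma between Wistar and GK-Sham-PF rats (1 at an unadjusted p under 0.05, and 0 by the unadjusted Tukey comparison). The part of these genes in the S100g steps was not tested.

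Atp2b1 encodes the plasma membrane calcium pump PMCA1, which enterocytes use at the basolateral side and which most other cells, smooth muscle among them, also express. On probe A_44_P245665 the processed signal was 1810, 1559, 832, 2057 and 2002 in Wistar replicates 1 to 5, 2350, 2411, 1599, 1980 and 864 in GK-Sham-PF, and 5532, 2697, 3454, 2603 and 3745 in GK-S-30. All 5 GK-S-30 signals exceeded every signal of the other groups, and replicate 1 stood highest. The mean level was 10.72 ± 0.25 (n = 5) in Wistar, 10.80 ± 0.37 (n = 5) in GK-Sham-PF and 11.64 ± 0.35 (n = 5) in GK-S-30. GK-S-30 was 1.79-fold higher than GK-Sham-PF (log2 difference 0.84, SE 0.20, adjusted p = 0.0194) and 1.89-fold higher than Wistar (0.92, SE 0.20, adjusted p = 0.00352). Between GK-Sham-PF and Wistar the difference was 0.08 (SE 0.20, adjusted p = 0.892), with a 95% interval of -0.34 to 0.50.

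The other Atp2b1 probe, A_43_P12761, gave a like size with more spread. Its processed signal was 356 to 859 in Wistar, 388 to 1375 in GK-Sham-PF and 1068 to 2844 in GK-S-30. Replicates 1 and 2 of GK-Sham-PF, at 1178 and 1375, lay within the range of GK-S-30. The difference between the GK-S-30 and the GK-Sham-PF group was 0.79 (SE 0.24), which was not called (adjusted p = 0.0607). It was called without Wistar replicate 3 (0.79, adjusted p = 0.0495), GK-Sham-PF replicate 2 (0.94, adjusted p = 0.0369) or GK-S-30 replicate 4 (0.90, adjusted p = 0.0432). Against Wistar it was 1.01 (SE 0.24, adjusted p = 0.00652), a 2.02-fold higher level without overlap, as 17.9% of all probes tested had none. Across the 15 arrays the probes correlated at 0.97, and at 0.93 after the group means were taken out, as a description of 2 probes on the same arrays.

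The call of Atp2b1 between the GK-S-30 and the GK-Sham-PF group was not firm. It was lost with slide as a fixed term (difference 1.15 and adjusted p = 0.111 on A_44_P245665) and without GK-Sham-PF replicate 3 (0.76, adjusted p = 0.0511). Within slide C the GK-S-30 arrays lay above the GK-Sham-PF arrays by 1.15 on A_44_P245665 and 1.25 on A_43_P12761, without overlap. Several smooth muscle genes were also higher in GK-S-30. Of 8 smooth muscle genes tested, 5 were called higher in GK-S-30 than in the GK-Sham-PF group and none lower (Tagln, Des, Cnn1, Actg2 and Myl9), with a median difference of 1.33 over the 8 genes beside -0.03 over all probes. The largest was that of Actg2, the enteric smooth muscle actin, at 2.35 (adjusted p = 7.79e-05). Myh11 was called neither on its brightest probe (0.83, adjusted p = 0.131) nor on its other (-0.01, adjusted p = 0.988). The dimmer probes of Myl9 (1.47, adjusted p = 0.00173) and Smtn (0.56, adjusted p = 0.0208) were called higher. The summed signal of the list was 165031 to 211641 in GK-S-30, 47780 to 107911 in GK-Sham-PF and 60003 to 92825 in Wistar. In GK-Sham-PF replicates 1 to 5 the smooth muscle signal was 62732, 64629, 68671, 107911 and 47780, and the Atp2b1 level on A_44_P245665 was 11.08, 11.15, 10.48, 10.96 and 10.32. In GK-S-30 replicates 1 to 5 they were 165031, 210951, 211641, 187067 and 198841, and 12.21, 11.38, 11.57, 11.33 and 11.70. The sham array lowest in muscle signal was also lowest in Atp2b1, the sham array highest in muscle signal was not highest in Atp2b1, and the GK-S-30 array lowest in muscle signal was highest in Atp2b1. The part of muscle in the Atp2b1 difference was not tested.

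**Figure D2:**
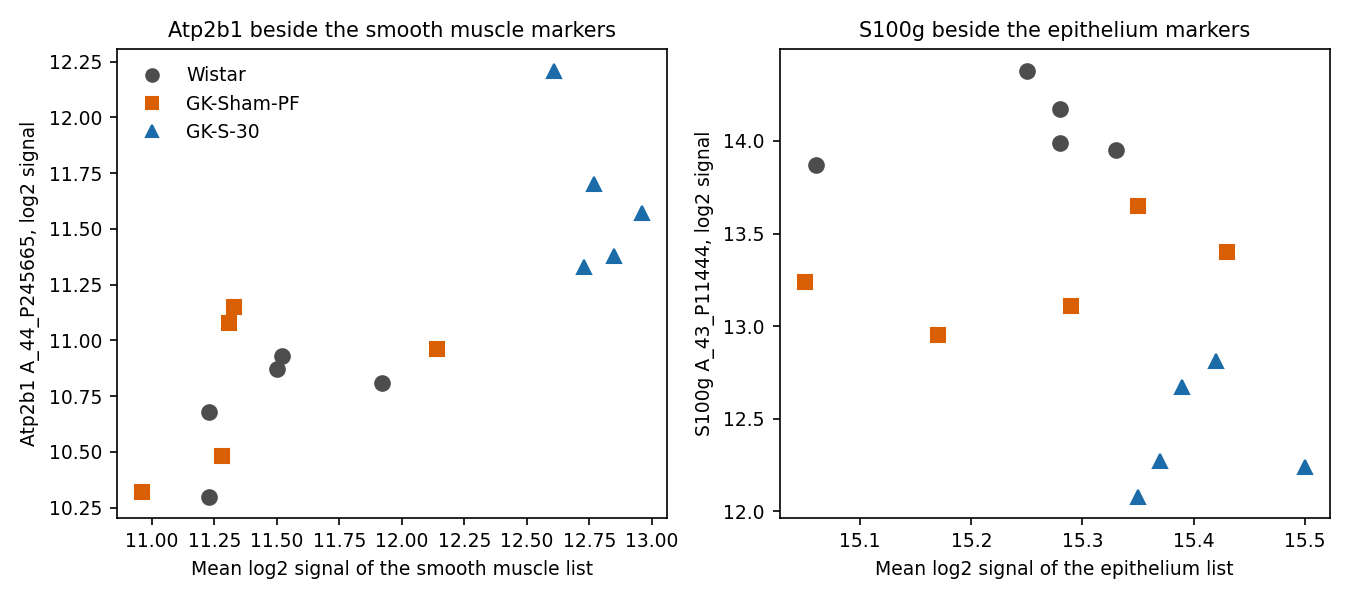
Log2 signal of Atp2b1 (A_44_P245665, left) against the mean log2 signal of 8 smooth muscle genes, and of S100g (right) against the mean log2 signal of 12 epithelial genes, 1 point per array. GK-S-30 arrays are apart from the others in smooth muscle level (12.61 to 12.96 against 10.96 to 12.14). In epithelial level GK-S-30 (15.35 to 15.50) overlaps GK-Sham-PF (15.05 to 15.43) and lies above every Wistar array (15.06 to 15.33).

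Vdr, the nuclear receptor through which calcitriol acts on the genes above, showed no called difference. The processed signal was 201 to 274 in Wistar, 221 to 305 in GK-Sham-PF and 141 to 325 in GK-S-30, where replicate 3 (325) had the highest signal of the 15 arrays and replicates 1 and 4 (164 and 141) the lowest. Mean levels were 7.86 ± 0.26 (n = 5) in Wistar, 8.01 ± 0.29 (n = 5) in GK-Sham-PF and 7.55 ± 0.42 (n = 5) in GK-S-30, and the groups overlapped in every pair. The difference between the GK-S-30 and the GK-Sham-PF group was -0.45 (SE 0.20, adjusted p = 0.197), with a 95% interval of -0.87 to -0.04 before adjustment for the number of probes. It was 0.15 (adjusted p = 0.779) between GK-Sham-PF and Wistar, with an interval of -0.27 to 0.56. It was -0.31 (adjusted p = 0.287) between GK-S-30 and Wistar, with an interval of -0.73 to 0.11.

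**Figure D3:**
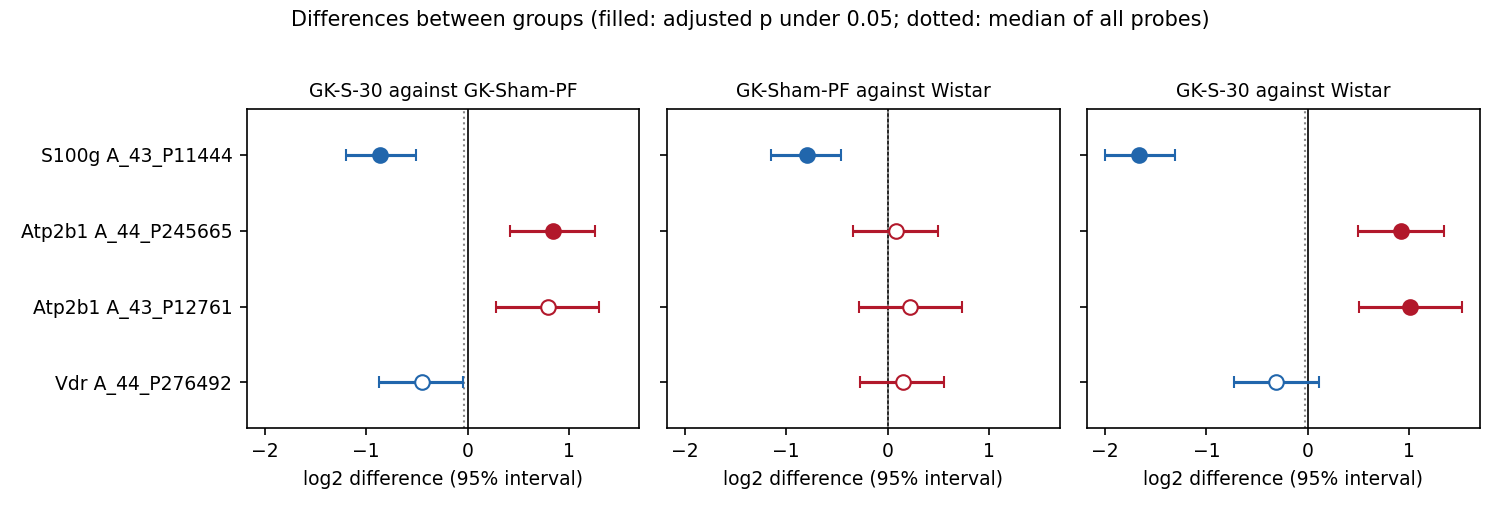
Log2 difference of the 4 probes tested in each pair of groups, with 95% intervals of the limma model. Filled points were called at an adjusted p under 0.05, open points were not, and the dotted line is the median difference of all 27893 probes (-0.03, 0 and -0.03). S100g is lower in all 3 pairs, Atp2b1 is higher where GK-S-30 is compared, and the Vdr points are open.

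Cyp24a1, the calcitriol 24-hydroxylase and one of the genes most responsive to the hormone, was either well measured or at background, and this split ran through both GK groups. On A_43_P19543 the processed signal in Wistar replicates 1 to 5 was 6.09, 4.02, 1.86, 2.48 and 3.38, none of them well above background. In GK-Sham-PF it was 5.06, 319, 2.50, 305 and 351, and in GK-S-30 270, 11.3, 754, 4.36 and 446. Replicates 2, 4 and 5 of GK-Sham-PF and replicates 1, 3 and 5 of GK-S-30 were thus well above background, and the other 9 arrays were not.

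The probe A_44_P235892, some distance away in the same gene, split the arrays in the same way. Its signal was 2.23 to 3.37 in Wistar, 264, 193 and 142 in GK-Sham-PF replicates 2, 4 and 5, and 254, 652 and 293 in GK-S-30 replicates 1, 3 and 5. The remaining GK-Sham-PF arrays had 3.05 and 2.94, and the remaining GK-S-30 arrays 10.5 and 2.54. The 6 arrays with signal lay on slides B, C and D. Each of these slides also held arrays without it, 1 Wistar and 2 GK-Sham-PF on slide B, GK-S-30 replicate 2 on slide C and GK-S-30 replicate 4 on slide D, and slide A held only Wistar arrays.

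As no group had Cyp24a1 above background on all its arrays, it was outside the fit. Against the background level of the Wistar arrays, the mean over all 5 GK-Sham-PF arrays was 5.45-fold higher on A_43_P19543 and 3.86-fold higher on A_44_P235892. That of GK-S-30 was 8.18-fold and 6.46-fold higher. Only the Wistar arrays were raised to background here. The GK arrays without signal kept their measured values, under the background level of their arrays, so these are approximate bounds. They rest on single arrays, as each group was split. Leaving out 1 array gave bounds of 3.09-fold (without GK-Sham-PF replicate 5) to 11.8-fold (without replicate 3) for GK-Sham-PF on A_43_P19543, and of 4.85-fold (without GK-S-30 replicate 3) to 16.6-fold (without replicate 4) for GK-S-30. On A_44_P235892 they ran from 2.45-fold (without GK-Sham-PF replicate 2) to 7.32-fold (without replicate 1) and from 3.74-fold (without GK-S-30 replicate 3) to 14.0-fold (without replicate 4). In a limma fit of all 41012 probes without the detection filter, the adjusted p was 0.0797 and 0.0822 for GK-S-30 against Wistar, 0.245 and 0.283 for GK-Sham-PF against Wistar and 0.909 and 0.872 for GK-S-30 rats against GK-Sham-PF rats, so no pair passed the threshold. The split was within groups, and the labels give no difference between the rats of one group other than their number.

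**Figure D4:**
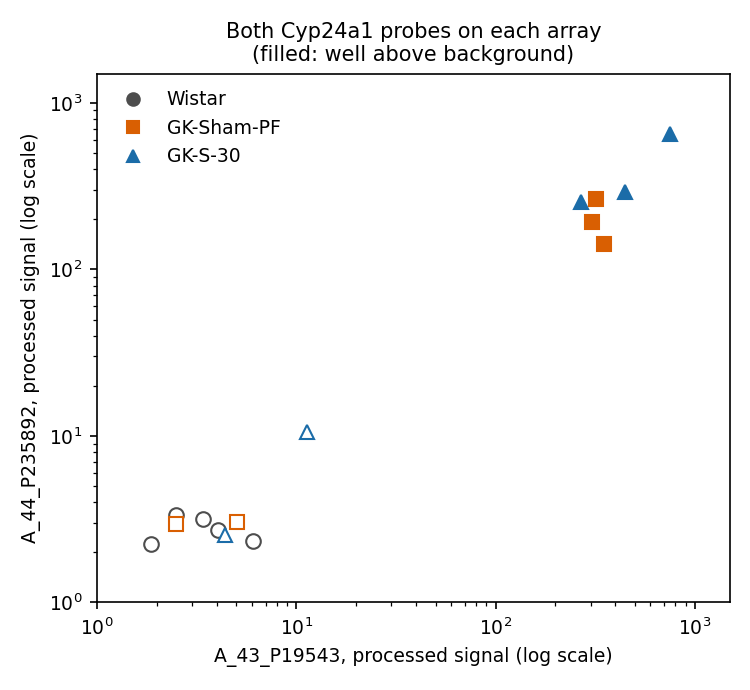
Processed signal of the Cyp24a1 probe A_44_P235892 against that of A_43_P19543 on each of the 15 arrays, both on log scales. Filled points were well above background on both probes. The 6 arrays with signal, 3 of each GK group, lie at 142 or more on both probes, and the other 9 arrays, all 5 Wistar arrays among them, at 11.3 or less.

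Trpv6, the apical calcium channel, was at the edge of detection. Its probe, at chr4:69332349-69332408 on the minus strand, was well above background on 1 of 5 Wistar, 2 of 5 GK-Sham-PF and 2 of 5 GK-S-30 arrays. The processed signal was 6.46 to 11.4 in Wistar, 3.31 to 15.5 in GK-Sham-PF and 4.72 to 15.2 in GK-S-30, where the lowest signal called well above background on an array was 8.56 to 12.8. The groups overlapped in all pairs, and a difference could not be measured at this signal. Calb1, at chr5:30475783-30475991 on the plus strand with the probe split over 209 bases, was likewise well above background on 1, 2 and 2 arrays, with signals of 1.88 to 12.9 in Wistar, 2.03 to 13.1 in GK-Sham-PF and 7.04 to 25.1 in GK-S-30. Trpv5, the renal relative of Trpv6, was well above background on 2, 1 and 0 arrays.

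Most other genes of calcium transport were not called. Of 20 listed genes 14 were tested, and between the GK-S-30 and the GK-Sham-PF group 2 were called higher and 1 lower, with a median difference of -0.01 beside -0.03 over all probes. Cacna1c, the pore subunit of the L-type channel of muscle, was 1.93-fold higher in GK-S-30 (difference 0.95, SE 0.17, adjusted p = 0.00427). Atp2a3, a calcium pump of the endoplasmic reticulum, was 1.57-fold higher on its brightest probe (0.65, adjusted p = 0.038), but its other probes gave 0.57 (adjusted p = 0.0596) and 0.32 (adjusted p = 0.323). Calb2, the calbindin relative calretinin of enteric neurons, was 1.49-fold lower (difference -0.58, adjusted p = 0.0383). Between GK-Sham-PF and Wistar only Atp2b3, another plasma membrane calcium pump, was called among the 14 brightest probes, 1.71-fold higher in GK-Sham-PF (0.77, SE 0.12, adjusted p = 0.000455), and the median was -0.01. A dimmer Atp2a3 probe fell there (difference -0.84, adjusted p = 0.00542) while its brightest gave -0.16 (adjusted p = 0.712). Slc8a1, the sodium-calcium exchanger that can share the basolateral exit, gave -0.35 (adjusted p = 0.273) between the GK-S-30 and the GK-Sham-PF group on its brightest probe, and 0.18 (adjusted p = 0.566) and 0.58 (adjusted p = 0.126) on the others, so its probes differed in direction and none was called.

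Of 20 genes of vitamin D handling and of the receptor's partners 16 were tested. Dhcr7, the enzyme that turns the vitamin D precursor 7-dehydrocholesterol into cholesterol, was 1.41-fold higher in GK-S-30 than in the GK-Sham-PF group (0.49, SE 0.13, adjusted p = 0.0355), and no other gene of the list was called in this pair. This call was lost with slide as a fixed term and with arrays centred on epithelial genes, and in both settings Cubn was called lower instead. Cyp27b1, which makes calcitriol, was 1.73-fold higher in GK-Sham-PF than in Wistar rats (0.79, SE 0.18, adjusted p = 0.0124), again the only call, with levels of 6.74 ± 0.41 in Wistar rats, 7.53 ± 0.30 under sham operation and 7.17 ± 0.13 in the RL (SD, n = 5 each). Rxra, the main partner of the receptor on DNA, differed by 0.20 (adjusted p = 0.384) and -0.24 (adjusted p = 0.318) in these pairs. The list's median was -0.07 and -0.08. Between GK-S-30 and Wistar, 1 gene was higher (Dhcr7, 0.68) and 1 lower (Cubn, -2.34, adjusted p = 0.0181). Cubn encodes cubilin, an uptake receptor for vitamin B12 with intrinsic factor in the ileum and for the vitamin D binding protein in the kidney.

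Genes reported as targets of the receptor moved in both directions. Of 19 listed genes 14 were tested. Between the GK-S-30 and the GK-Sham-PF group, Slc30a10, a manganese exporter, was 1.72-fold higher (0.78, SE 0.22, adjusted p = 0.0447, a call lost under both other scalings) and Cyp3a62, a cytochrome of drug and steroid oxidation, 2.31-fold lower (-1.21, SE 0.28, adjusted p = 0.0189), with a median of -0.03. Cyp3a62 had been 2.30-fold higher in GK-Sham-PF than in Wistar (1.20, adjusted p = 0.0139), so that GK-S-30 and Wistar had means of 12.99 and 13.00. Its relative Cyp3a18 was 6.24-fold lower in GK-Sham-PF than in Wistar (-2.64, SE 0.36, adjusted p = 0.000174) and differed by -0.20 (adjusted p = 0.826) between the GK-S-30 and the GK-Sham-PF group. Members of this family are alike in sequence, so a probe may read a relative. Spp1, the secreted phosphoprotein osteopontin, was well above background on 5 GK-Sham-PF arrays, on 4 of GK-S-30 and on 0 of Wistar. It was at least 2.62-fold higher in GK-Sham-PF than the background level of the Wistar arrays. In GK-S-30, with every array at its measured value, it was 6.28-fold higher than that level, an approximate bound. It was fitted because of its level in GK-Sham-PF, so its calls against Wistar are given as bounds, with no p. Thbd, an endothelial receptor of thrombin, was 1.60-fold higher in GK-Sham-PF than in Wistar (0.68, adjusted p = 0.0101). Leaving out Spp1, the genes called in that pair were Cyp3a62 and Thbd, both higher, and Cyp3a18, lower. The median over the 14 genes, Spp1 among them, was 0.14.

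In the passive route, 13 of 14 genes of tight junctions were tested. Cldn15, which forms cation pores in the small intestine, was 1.49-fold lower in GK-S-30 than in the GK-Sham-PF group (-0.58, SE 0.15, adjusted p = 0.028). Cldn1, a barrier claudin, was well above background on all 5 GK-Sham-PF arrays and on no array of the other groups, at least 1.26-fold over GK-S-30 and at least 1.42-fold over Wistar, and was likewise fitted only because of the group where it was high. Cldn2, a calcium-permeable claudin that calcitriol can raise, differed by -0.01 (adjusted p = 0.995) between the GK-S-30 and the GK-Sham-PF group and by 0.39 (adjusted p = 0.679) between GK-Sham-PF and Wistar. Of 12 genes of phosphate and magnesium absorption 10 were tested and 0 called by limma in either pair (2 in each at an unadjusted p under 0.05, and 0 and 1 by the unadjusted Tukey comparison), with medians of -0.05 and 0.12. Trpm6, the magnesium channel, gave 1.11 between GK-Sham-PF and Wistar (adjusted p = 0.0514).

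Between GK-S-30 and Wistar, which differ in strain and operation, the calls in calcium transport were 2 higher (Cacna1c and Atp2b3) and 1 lower (Slc8b1). Among receptor targets Slc30a10, Thbd and Abcc3 were called higher and Cyp3a18 lower, leaving out Spp1, which is given only as bounds. In phosphate and magnesium absorption 1 was called higher, the phosphate transporter gene Slc20a1 (0.89, adjusted p = 0.0147). In the passive route Cldn15 and Ocln were called lower. Slc8b1, a mitochondrial sodium-calcium exchanger, gave -0.40 (adjusted p = 0.0233). With slide as a fixed term, the calls between the GK groups were Calb2 (-1.04, adjusted p = 0.0329) and Cubn (-3.63, adjusted p = 0.00806, against -2.20 and 0.0577 without slide), both lower. No other gene of the 5 lists was called, so the calls of Cacna1c, Atp2a3, Dhcr7, Slc30a10, Cyp3a62 and Cldn15 were lost.

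**Figure D5:**
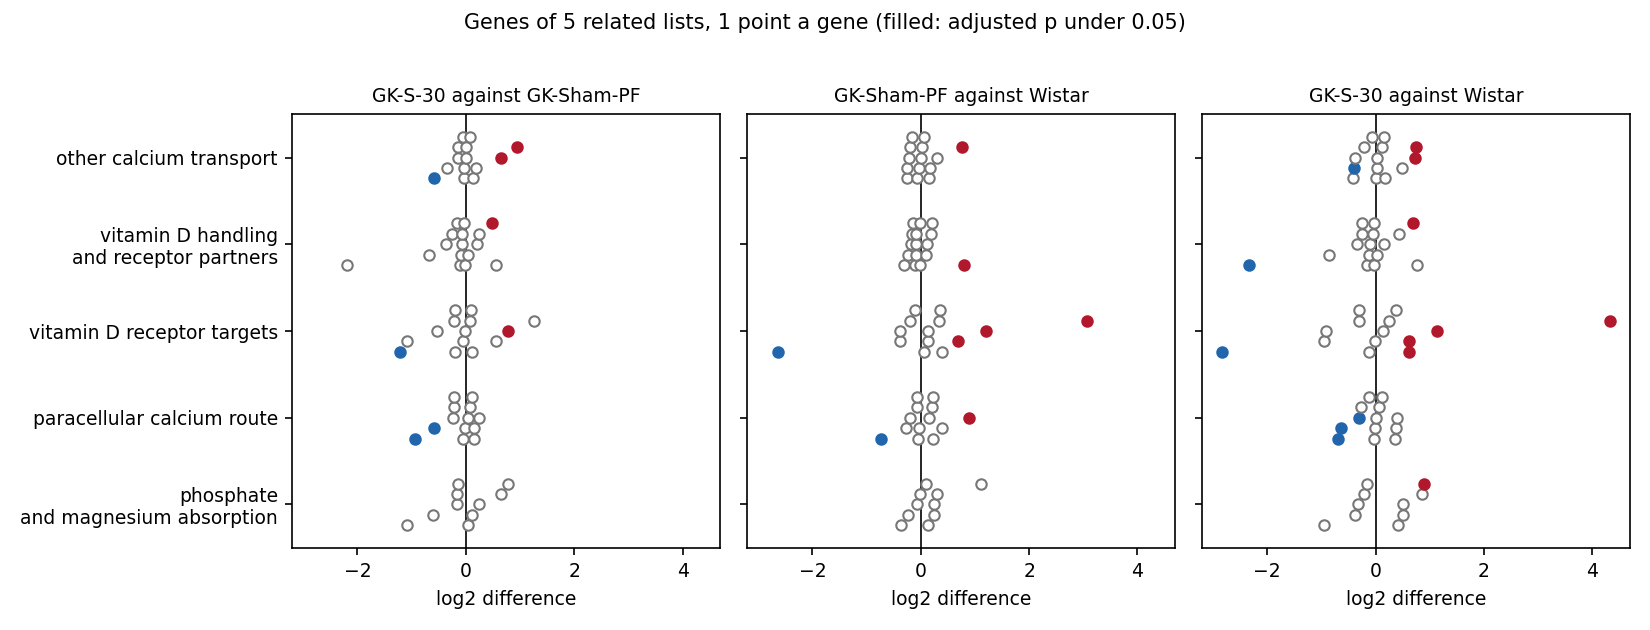
Log2 difference of each tested gene of 5 related lists in the 3 pairs of groups, 1 point a gene on its brightest probe. Red filled points were called higher, blue filled points lower, and open points were not called. Most points lie near 0, and the far points are Spp1 (drawn against Wistar arrays at background, where only the bounds above hold), Cyp3a18 (-2.64 and -2.84) and Cubn (-2.20 and -2.34).

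Over the 15 arrays, the named probes most like S100g among 17002 searched were LOC501194, Slfnl1 and Dapl1, each with a Pearson correlation of 0.96, and of 0.70, 0.65 and 0.63 after the group means were taken out. Those most like Atp2b1 (A_44_P245665) were the calcium-binding annexin genes Anxa8 (0.97, and 0.92 within groups) and Anxa5 (0.95, and 0.87), followed by Masp1 (0.94, and 0.84). For Vdr they were Lat (0.83), Phaf1 (0.83) and Mxd4 (0.82). The arrays share their groups and slides, and these values are descriptions. Promoters from RefSeq (GRCr8), from 250 bases before to 50 after the start, were at hand for Trpv6, Vdr and Atp2b1. None held, on either strand, a pair of half-sites spaced by 3 bases (each half-site being AGGTCA or AGTTCA or GGTTCA or GGGTCA), the form of vitamin D response element searched for, and 33 of 33469 promoters (0.0986%) held one.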

How the data were processed

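Total RNA of 15 intestinal pieces carrying 1 dye was read on Agilent rat arrays. The deposited array files hold intensity values as the authors' Feature Extraction software (version 10.7 in the submitters' processing notes) wrote them: the processed signal, with background subtracted and no normalization between arrays, and the mean and background signals of each spot. The deposited series matrix holds log2 values that the authors had quantile-normalized, and served as an alternative. Here, control spots and outlier-flagged spots were left out, the spots of each probe averaged, and log2 processed signals were quantile-normalized (R 4.3.3, limma 3.58.1, data.table version 1.17.8, figures with matplotlib 3.10.9). Of 41012 probes, 27893 were detected well above background throughout 1 or more groups and were fitted in 1 limma model over the 15 arrays, 45 of them with a missing value, with Benjamini-Hochberg adjustment over all of these at 0.05. The standard error of a log2 difference had a median of 0.16, and 5 arrays a group limit the precision.

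Groups came from the sample labels. Replicates were separate rats, and their numbers did not pair arrays across groups (correlations of same-numbered deviations of -0.29 to 0.20). A fold against a group never above background is an approximate bound. Values of that group were raised to the lowest signal called well above background on each array, and the other group kept its measured values. Gene symbols came from RefSeq names, 17541 through an accession, 3098 by symbol and 539 by synonym, and 1325 kept the file's name. Genes of the related lists stand for their brightest fitted probe. Named are all member probes, Cyp27b1, Rxra, Slc8a1, Trpv5 and Cldn2, and up to 5 genes a list called in the first 2 pairs, some of which are not reported here. Other genes (Cubn, Trpm6, Slc8b1, Abcc3, Ocln, Slc20a1 and marker genes) were named after their values were seen. The members and all gene lists were chosen with earlier results of these data known. Markers of other cells also gave calls between the GK-S-30 and the GK-Sham-PF group, where 6.7% of all probes tested were called. Called higher were 2 of 9 enteroendocrine and 1 of 3 blood genes. Called lower were 1 of 8 enteric neuron, 1 of 5 pancreatic acinar and 1 of 8 immune genes. Of 3 gastric genes 0 were called (0 also at unadjusted p in limma and by Tukey's comparison). The procedure was tested on simulated data. Alternatives were other scalings and background corrections, the series matrix, other filters, slide or replicate number in the model, only 2 groups, the methods' one-way model with Tukey's correction, and arrays left out.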

Additional observations from a re-analysis of the deposited data

Results flagged for a closer look

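In 1 of 24 sets of 5 arrays (8 probes in 3 groups), an array lay apart from the others of its group by a test of its gap to the nearest value, at a level where chance flags about 1 in 20. On the Atp2b1 probe A_43_P12761, Wistar replicate 3 had a log2 level of 9.08, with the nearest Wistar array at 9.51. This array also had the lowest 75th percentile of signal, 207. Without it, the difference between the GK-S-30 and the GK-Sham-PF group on this probe was 0.79 (adjusted p = 0.0495), past the threshold it had missed, and its part in the other values was not tested further.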

How the results depend on the processing

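Direction held for every called member probe in all alternatives run. With slide as a fixed block, 0 member probes were called in each of the 3 pairs, against 2, 1 and 3 in the main analysis, and calls over all probes fell from 1869, 2184 and 6352 to 382, 414 and 454. A slide held 1 or 2 groups, so this fit compares few arrays. With slide as a random block the counts were 2, 1 and 3 (correlation within slides -0.029). With the methods' comparison adjusted by Benjamini-Hochberg over all probes, 1 member probe (S100g) was called between the GK-S-30 and the GK-Sham-PF group. The replicate numbers gave no sign of pairing, and with the replicate block the counts were 2, 1 and 3, while calls over all probes between the GK-S-30 and the GK-Sham-PF group fell to 1211. Leaving out single arrays gave 1 to 3 calls between the GK-S-30 and the GK-Sham-PF group, 1 to 1 between GK-Sham-PF and Wistar and 3 to 3 between GK-S-30 and Wistar. Without GK-Sham-PF replicates 1 and 2, calls over all probes in the first pair fell to 1196 and 1237. Scaling to the 75th percentile gave 3 calls in the first pair, with Atp2b1 A_43_P12761 called (0.85, adjusted p = 0.0402). Centring on epithelial genes moved the median of all probes from -0.03 to -0.17 there and left the counts at 2, 1 and 3. The unadjusted Tukey comparison called 3864 and 3775 probes in the first 2 pairs, its adjusted form 763, 1384 and 4168, and testing named probes alone 1342 and 4101 in the last 2. In the 5 related lists the slide block gave 0, 0, 1, 0 and 0 calls between GK-Sham-PF and Wistar, in place of 1, 1, 4, 2 and 0, and both other scalings gave 1 receptor target in place of 2 between the GK groups. The counts of 4 and 2 between GK-Sham-PF and Wistar hold Spp1 and Cldn1, which are given above only as bounds. Background correction with normexp and an offset of 50, which shrinks low signals by construction, gave Cyp24a1 differences from Wistar of 1.09 to 1.60. Signal near background limits Trpv6, Calb1 and Cyp24a1.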
